A study of Homo sapiens with 6 samples.

Results

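The 10 genes described here belong to the YAP/TAZ-TEAD pathway: the coactivator genes YAP1 and WWTR1 (which encodes TAZ), the DNA-binding partners TEAD1 and TEAD4, the target genes CCN1, CCN2 and ANKRD1, and the regulators AMOTL2, AJUBA and LATS2. They were picked by name for their role in the pathway, with earlier results of these data known. All 10 were found by their NCBI Gene IDs among the 16623 genes listed for each library. The study treated MDA-MB-231 cells, a human triple-negative breast cancer line grown attached to the dish, with PCI-24781 (abexinostat), an inhibitor of histone deacetylases. RNA-seq was made from 6 groups with 1 library each: DMSO for 24 h, PCI-24781 at 100 nM for 24 h, PCI-24781 at 200 nM for 24 h, and the same 3 treatments for 48 h. DMSO is the solvent, and each treated library was compared with the DMSO library of its own time. Levels are given as FPKM, fragments scaled to transcript length and to the mapped fragments of the library.

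YAP1 and TAZ are coactivators with no DNA-binding domain of their own, and they switch on genes by binding TEAD transcription factors at sites near those genes. In the Hippo kinase cascade MST acts through LATS, which phosphorylates YAP1 and TAZ and keeps them out of the nucleus. Some target genes of YAP1 and TAZ, LATS2 and AMOTL2 among them, encode proteins that hold the coactivators back. MDA-MB-231 cells carry a mutation of NF2, which encodes an upstream activator of the Hippo kinases, and are widely used as cells with active YAP and TAZ.

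At 24 h the target genes CCN1, CCN2 and ANKRD1 were higher at 100 nM than in DMSO and higher again at 200 nM, where ANKRD1 reached 4.28 times and CCN2 3.98 times the level in DMSO of 24 h. Against DMSO of 48 h the same library stood at 1.51 in log2 for ANKRD1 and at 0.78 for CCN2, which is under 2-fold. In the same libraries YAP1 was lower with dose and WWTR1 differed little from DMSO. At 48 h, going by the labels, the target genes stood below DMSO at 100 nM and above it at 200 nM. There was 1 library per condition, no test was made and no replicate check exists for any difference. In bulk RNA, a change in how many cells express a gene and a change in RNA per cell cannot be told apart.

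The 250 bases before the transcription start were read from RefSeq promoters of build GRCh38.p14, which held 7 of the 10 genes with 10 start sites. CCN1, TEAD1 and TEAD4 had no entry. The letters GGAATG, a common TEAD-binding motif, were searched on both strands, so that CATTCC counts as a match on the other strand. Of 35116 RefSeq promoters of this length, 11.9% held at least 1 match, 0.94% at least 2 and 0.0826% at least 3. CCN2 held 3 matches, ANKRD1 2, and YAP1, AMOTL2 and AJUBA 1 each, while WWTR1 and LATS2 held none in this window. Counted by promoter, as the shares are, 5 of the 10 start sites held a match, since AMOTL2 and AJUBA matched at 1 of their 2. CCN2 and ANKRD1 are printed because they had the largest changes, AMOTL2 as a target that also restrains the pathway, and YAP1 as the coactivator gene that moved the opposite way at 24 h. Each sequence runs 5′ to 3′ toward the start, with the motif in capitals.
CCN2 (chr6:131951373-131951622, minus strand): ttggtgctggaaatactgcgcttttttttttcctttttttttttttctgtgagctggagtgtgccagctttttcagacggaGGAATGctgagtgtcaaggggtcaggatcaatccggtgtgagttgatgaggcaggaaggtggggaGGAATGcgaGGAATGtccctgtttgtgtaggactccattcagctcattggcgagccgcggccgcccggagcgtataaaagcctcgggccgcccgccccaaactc
ANKRD1 (chr10:90921088-90921337, minus strand): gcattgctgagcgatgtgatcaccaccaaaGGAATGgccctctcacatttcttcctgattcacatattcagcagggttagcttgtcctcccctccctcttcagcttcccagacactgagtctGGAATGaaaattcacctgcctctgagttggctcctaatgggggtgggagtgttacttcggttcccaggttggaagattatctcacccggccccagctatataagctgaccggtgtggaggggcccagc
AMOTL2, start site 2 (chr3:134374448-134374697, minus strand): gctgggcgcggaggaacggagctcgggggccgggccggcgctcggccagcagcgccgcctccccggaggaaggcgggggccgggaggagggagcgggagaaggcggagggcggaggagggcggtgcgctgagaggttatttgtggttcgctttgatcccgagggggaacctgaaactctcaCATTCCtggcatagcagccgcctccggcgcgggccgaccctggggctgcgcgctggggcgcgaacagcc
YAP1 (chr11:102110197-102110446, plus strand): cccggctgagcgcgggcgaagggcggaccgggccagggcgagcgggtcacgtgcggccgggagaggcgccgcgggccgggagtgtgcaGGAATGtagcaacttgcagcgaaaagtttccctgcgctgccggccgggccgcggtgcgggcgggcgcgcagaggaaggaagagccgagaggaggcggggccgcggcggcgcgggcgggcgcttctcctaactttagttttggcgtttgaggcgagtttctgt

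In CCN2 the matches begin 169, 104 and 95 bases before the start, and the last 2 lie close together. The ANKRD1 matches begin 220 and 128 bases before it. Those of YAP1, AMOTL2 and AJUBA begin at 162, 69 and 59 bases, the AMOTL2 match on the other strand. Another motif, TGANTCA, covers the site of AP-1, a factor often found beside TEAD. It matched at 1 of the 10 start sites, that of ANKRD1, and in 6.57% of all promoters. The narrower form TGACTCA or TGAGTCA, added after the first result had been seen, matched at 0 of the 10 start sites and in 4.2% of all promoters. A match describes the letters in this window and does not show that a factor binds there.

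Depth was not given with the values and was inferred from the spacing of low FPKM values of genes with a single short transcript. This gave about 15800000 to 18000000 fragments per library. All 10 genes had at least 1 FPKM in all 6 libraries, from 10.07 for LATS2 to 816.02 for ANKRD1. At the inferred depth, counting alone gives a standard error of 0.013 to 0.12 in a log2 difference, with WWTR1 left out because no transcript length was found for it. This error covers counting only, and not the spread between cultures.

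The libraries had the markers of the labelled cell line. VIM, a mesenchymal intermediate filament gene, ranged from 1629.38 to 2053.39 FPKM, and the estrogen and progesterone receptor genes ESR1 and PGR reached at most 0.04 and 0.03. All 6 genes listed as high in this line were at 1 FPKM or more in all 6 libraries, and CD44 ranged from 154.04 to 218.74. Of the 6 genes listed as low, ERBB2 was the most abundant at 13.16 to 21.36 FPKM and EPCAM reached 4.7. The summed level of 8 markers of other cell types was 5.04 FPKM in DMSO, 8.45 at 100 nM and 14.12 at 200 nM at 24 h, and 8.5, 7.5 and 13.12 at 48 h. It was ordered by dose at 24 h, and at 48 h it was lowest at 100 nM and highest at 200 nM. The most abundant of the 8 was COL1A1 or ACTA2 in each library, and COL1A1 rose from 1.66 to 6.68 FPKM at 200 nM and 24 h. The other fibroblast gene, COL1A2, was at 0.3 and 0.2 FPKM in the same libraries, CD14 at 0.28 and 1.12, and PECAM1 at 0.38 and 1.25. PTPRC, the leukocyte gene, ranged from 0.76 to 1.01 FPKM. The T cell gene CD3E and the basal gene KRT5 were at or near 0 throughout, at no more than 0.04 and 0.02 FPKM. The part of these markers in the results was not tested.

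The DMSO libraries differed from each other, which bears on every comparison. Of 11490 genes compared, 286 were at least 2-fold higher at 48 h than at 24 h (2.49%) and 15 were at least 2-fold lower (0.131%). CCN2 was 1 of the 286, at 88.75 FPKM in DMSO at 24 h and 204.78 at 48 h, a log2 difference of 1.20. No other gene of the 10 passed 2-fold between the DMSO libraries, with AJUBA at -0.65, ANKRD1 at 0.58 and TEAD4 at -0.53. The library of 100 nM at 48 h had the lowest CCN1, CCN2 and ANKRD1 of all 6, each under its level in DMSO at 24 h. The library labelled 100 nM at 48 h also resembled DMSO at 24 h in some other values, and the library labelled DMSO at 48 h resembled 100 nM at 24 h in the same ones. Genes listed at 0 numbered 1614 and 1708 in the first pair and 1391 and 1380 in the second, and the ratio of CCN1 to CCN2 was 3.39 and 3.49 in the first pair and 2.05 and 2.09 in the second. The ratio of MOB1A to MOB1B, a pair of LATS cofactor genes, was 7.71 and 7.84 in the first pair and 6.57 and 5.99 in the second. The matrix metalloproteinase gene MMP1 was at 5.82 and 9.44 FPKM in the first pair and at 14.07 and 14.03 in the second. MMP3 was at 0.15 and 0.12 and at 0.82 and 0.72, and MMP2 reached at most 0.1 FPKM in any library. The 200 nM libraries of 24 h and 48 h had MOB1A to MOB1B ratios of 4.53 and 5.6, and MMP1 at 8.16 and 14.93 FPKM. In this ratio 100 nM at 24 h was nearer to 200 nM at 48 h than to DMSO at 48 h. In MMP1, DMSO at 24 h was nearer to 200 nM at 24 h than to 100 nM at 48 h. Other ratios did not pair the libraries in this way: YAP1 to WWTR1 was 1.48 at 100 nM and 48 h against 2.12 in DMSO at 24 h, and LATS2 to LATS1 was 2.03 against 1.57. The study reports lower MMP1 and MMP3 after treatment by quantitative PCR. From its RNA-seq it also describes MMP1, MMP2 and MMP3 as mainly decreased across the 4 comparisons with DMSO. In the values used here and by the labels, MMP1 stood at -1.14 and MMP3 at -0.66 in log2 at 100 nM and 48 h. In the other comparisons MMP1 stood at 0.53 (100 nM, 24 h), -0.19 (200 nM, 24 h) and 0.08 (200 nM, 48 h). MMP3 stood at 0.62, 0.51 and 0.21 in the same order. Except at 200 nM and 48 h, MMP3 was under 1 FPKM in both libraries compared, and so below the filter used for the other genes. The labels were used as given, and whether those of DMSO and 100 nM at 48 h were exchanged was not tested. The directions given for 100 nM and 48 h rest on the labels, and an exchange would turn those signs. At 200 nM and 48 h an exchange would leave CCN1, CCN2 and ANKRD1 higher, at 0.76, 1.85 and 1.91. CCN2 and ANKRD1 would then be past 2-fold there. Time in culture and the individual library cannot be told apart here, so the results are also given against the DMSO library of the other time.

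**Figure D1:**
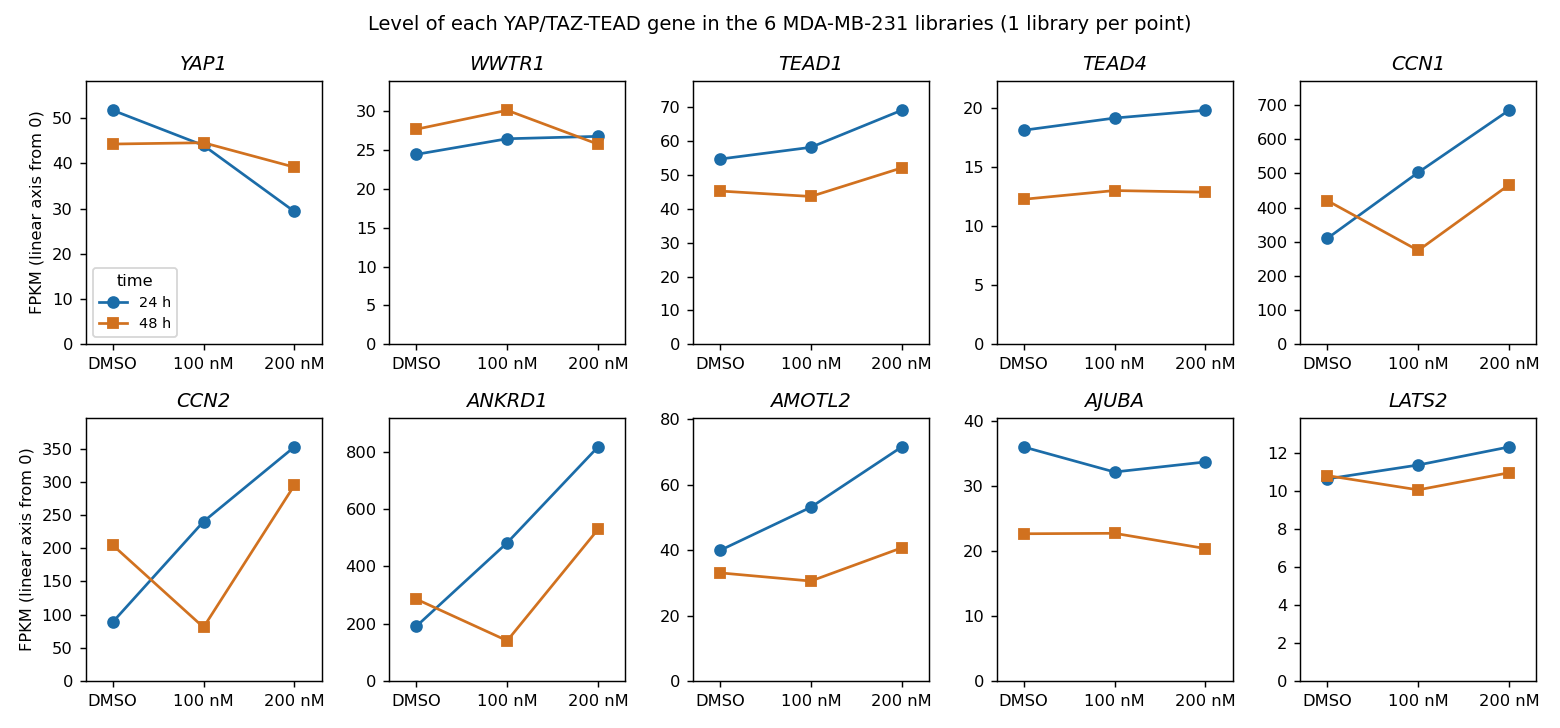
FPKM of each of the 10 genes (linear axes from 0) against treatment, with 24 h as blue circles and 48 h as orange squares, 1 library per point. At 24 h CCN1, CCN2, ANKRD1 and AMOTL2 are higher at each dose step and YAP1 is lower, while at 48 h CCN1, CCN2 and ANKRD1 are lowest at 100 nM.

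YAP1 (NCBI Gene 10413), the gene of the first coactivator, was at 51.76 FPKM in DMSO, 43.98 at 100 nM and 29.37 at 200 nM at 24 h, and at 44.29, 44.58 and 39.18 FPKM at 48 h. Its level was thus lowest at 200 nM and 24 h, and the 48 h libraries lay closer together. In log2(FPKM + 1), the scale of all differences given from here on, 200 nM at 24 h stood at -0.80 against DMSO, past 1.5-fold but not 2-fold, and 3.1% of 11660 genes were lower. The difference was -0.23 at 100 nM and 24 h, 0.01 at 100 nM and 48 h, and -0.17 at 200 nM and 48 h. Against DMSO of 48 h, 200 nM at 24 h stood at -0.58, short of 1.5-fold.

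WWTR1 (NCBI Gene 25937) was at 24.47, 26.48 and 26.79 FPKM in DMSO, 100 nM and 200 nM at 24 h, and at 27.71, 30.15 and 25.78 FPKM at 48 h. Its levels covered a narrow range, and its differences from DMSO lay between -0.10 and 0.13. Taking the other DMSO library, the 24 h values for 100 nM and 200 nM came to -0.06 and -0.05, and the 48 h values to 0.29 and 0.07. The YAP1 level was 2.12 times that of WWTR1 in DMSO at 24 h and 1.10 times at 200 nM, as YAP1 was lower and WWTR1 was not. At 48 h the ratio was 1.60, 1.48 and 1.52 in DMSO, 100 nM and 200 nM. The sum of both genes was 76.23 FPKM in DMSO and 56.16 at 200 nM at 24 h.

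The TEAD genes encode the factors that bring YAP and TAZ to DNA. TEAD1 (NCBI Gene 7003) was the most abundant, at 54.7, 58.17 and 69.11 FPKM in DMSO, 100 nM and 200 nM at 24 h, and at 45.25, 43.65 and 52.08 FPKM at 48 h. It was highest at 200 nM at both times, with log2 differences of 0.33 and 0.20, and neither passed 1.5-fold. Against the DMSO library of the other time they were 0.60, past 1.5-fold, and -0.07. TEAD4 (NCBI Gene 7004) was at 18.13, 19.16 and 19.82 FPKM at 24 h and at 12.28, 13.02 and 12.88 FPKM at 48 h. The TEAD4 levels separated by time and not by dose, since all 3 libraries of 48 h lay below all 3 of 24 h. Its log2 differences from DMSO of the same time were 0.06 to 0.12, which is within or near its counting error. With the DMSO library of the other time as reference, the 24 h values came to 0.60 and 0.65 and those of 48 h to -0.45 and -0.46.

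TEAD2 and TEAD3, the other TEAD genes, ranged from 12.94 to 21.56 and from 19.14 to 23.92 FPKM. TEAD2 was lowest at 200 nM at both times, at -0.46 and -0.30 in log2. The sum of the 4 TEAD genes was 112.73 FPKM in DMSO and 124.65 at 200 nM at 24 h, and TEAD1 made up 48.5% and 55.4% of it. Among the VGLL genes, which encode cofactors that compete with YAP for TEAD, VGLL3 rose from 1.48 to 4.89 FPKM at 200 nM and 24 h, a log2 change of 1.25. Its level in DMSO at 48 h was 3.31 FPKM, and against that library the change was 0.45. VGLL4 was at 8.1 FPKM in DMSO and 6.43 at 200 nM at that time. VGLL1 and VGLL2 were on the list too, but no gene with either symbol was found among those measured. For the 6 TEAD and VGLL genes measured, the median change was 0.01, 0.10, 0.07 and 0.05 at 100 nM and 24 h, 200 nM and 24 h, 100 nM and 48 h, and 200 nM and 48 h. Over all genes tested the median was 0.01, 0.01, -0.01 and 0.01 in the same order.

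CCN1 (formerly CYR61, NCBI Gene 3491) encodes a secreted matricellular protein and is a classical target of YAP and TAZ. It was at 309.87, 502.61 and 684.54 FPKM in DMSO, 100 nM and 200 nM at 24 h, and at 420.0, 274.31 and 466.24 FPKM at 48 h. The 24 h levels were ordered by dose, and the 48 h levels were lowest at 100 nM. Its log2 difference was 0.70 at 100 nM and 24 h, 1.14 at 200 nM and 24 h, -0.61 at 100 nM and 48 h, and 0.15 at 200 nM and 48 h.

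CCN2 (formerly CTGF, NCBI Gene 1490), a related secreted protein gene, has a promoter with 3 motif matches. It was at 88.75, 240.28 and 352.8 FPKM at 24 h, again in DMSO, 100 nM and 200 nM, and at 204.78, 80.86 and 294.89 FPKM at 48 h. The lowest levels were DMSO at 24 h and 100 nM at 48 h, and the highest were the 200 nM libraries of both times. CCN2 rose by 1.43 at 100 nM and by 1.98 at 200 nM at 24 h, where 0.575% of 11660 genes had a larger increase. At 48 h it fell by 1.33 at 100 nM, where 0.104% of 11514 genes were lower, and stood at 0.52 at 200 nM. Its level at 200 nM and 48 h was 3.65 times that at 100 nM.

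ANKRD1 (NCBI Gene 27063), which encodes an ankyrin-repeat protein of muscle and is used as a readout of YAP and TAZ, reached the highest level of the 10 genes. It was at 190.83, 481.91 and 816.02 FPKM at 24 h and at 285.09, 140.2 and 528.38 FPKM at 48 h, in the same order of treatments. Like CCN2 it was lowest at 100 nM and 48 h, and both 200 nM libraries were above all others. ANKRD1 rose by 1.33 at 100 nM and 2.09 at 200 nM at 24 h. At 48 h it fell by 1.02 at 100 nM, a value of -0.98 and so under 2-fold with median-of-ratios scaling, and was 0.89 higher at 200 nM, past 1.5-fold only.

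**Figure D2:**
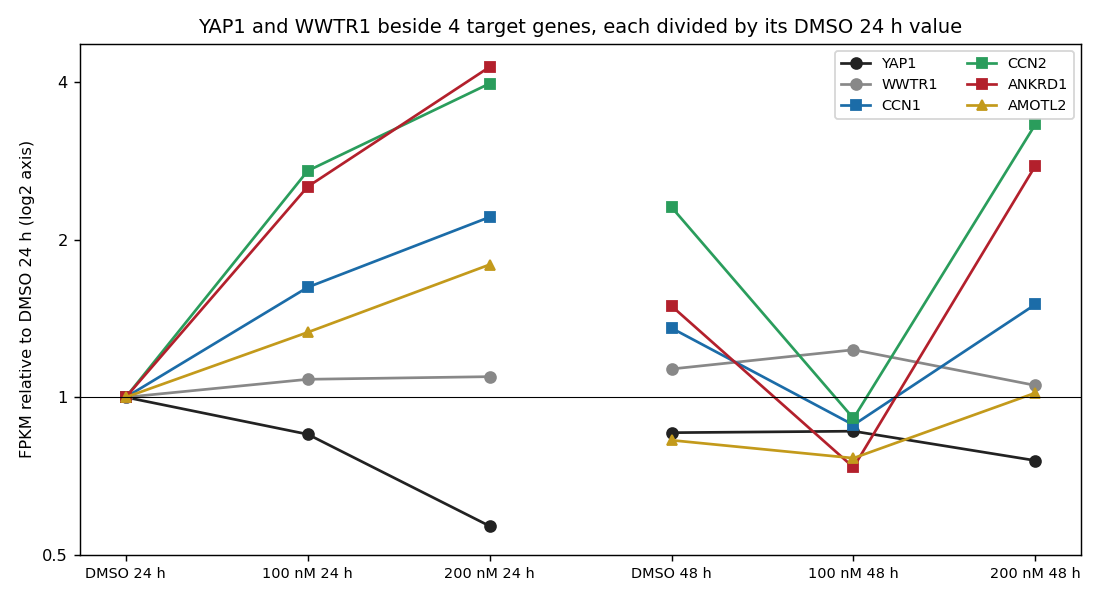
FPKM of YAP1, WWTR1 and 4 target genes in the 6 libraries, each divided by its own DMSO 24 h value (log2 axis), with lines joining libraries of the same time. At 24 h ANKRD1 reaches 4.28 and YAP1 0.567 at 200 nM, and at 48 h CCN2 starts from 2.31 in DMSO.

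The counts of these calls were read against all genes. The 10 genes were chosen with earlier results of these data known, so the counts are not independent of that choice. At 100 nM and 24 h, 2 of the 10 genes rose at least 2-fold (CCN2 and ANKRD1), against 1.35% of 11475 genes tested, and 0 fell, against 0.131%. At 1.5-fold 3 were higher, against 5.54%, and 0 lower, against 1.25%. At 200 nM and 24 h, 3 of the 10 rose at least 2-fold (CCN1, CCN2 and ANKRD1), against 4.47% of 11660 genes, and 0 fell, against 1.48%. At 1.5-fold 4 were higher with AMOTL2, against 12.5%, and 1 was lower, YAP1, against 7.58%. The higher calls were target genes and AMOTL2, and the single lower call, YAP1, was a share near that of all genes.

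At 100 nM and 48 h, 2 of the 10 genes fell at least 2-fold (CCN2 and ANKRD1), against 0.408% of 11514 genes, and 0 rose, against 0.0608%. At 1.5-fold 3 were lower with CCN1, against 1.75%, and 0 higher, against 0.504%. At 200 nM and 48 h, 0 of the 10 passed 2-fold in either direction, against 0.206% higher and 0.06% lower of 11665 genes. At 1.5-fold 1 was higher, ANKRD1, against 1.53%, and 0 were lower, against 0.463%. CCN2 and ANKRD1 thus passed 2-fold in opposite directions in the libraries labelled 100 nM, up at 24 h and down at 48 h. The difference between the times was not tested, and the direction at 48 h rests on the labels of DMSO and 100 nM there. Comparisons at the same time share their DMSO library, so their values are not independent.

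**Figure D3:**
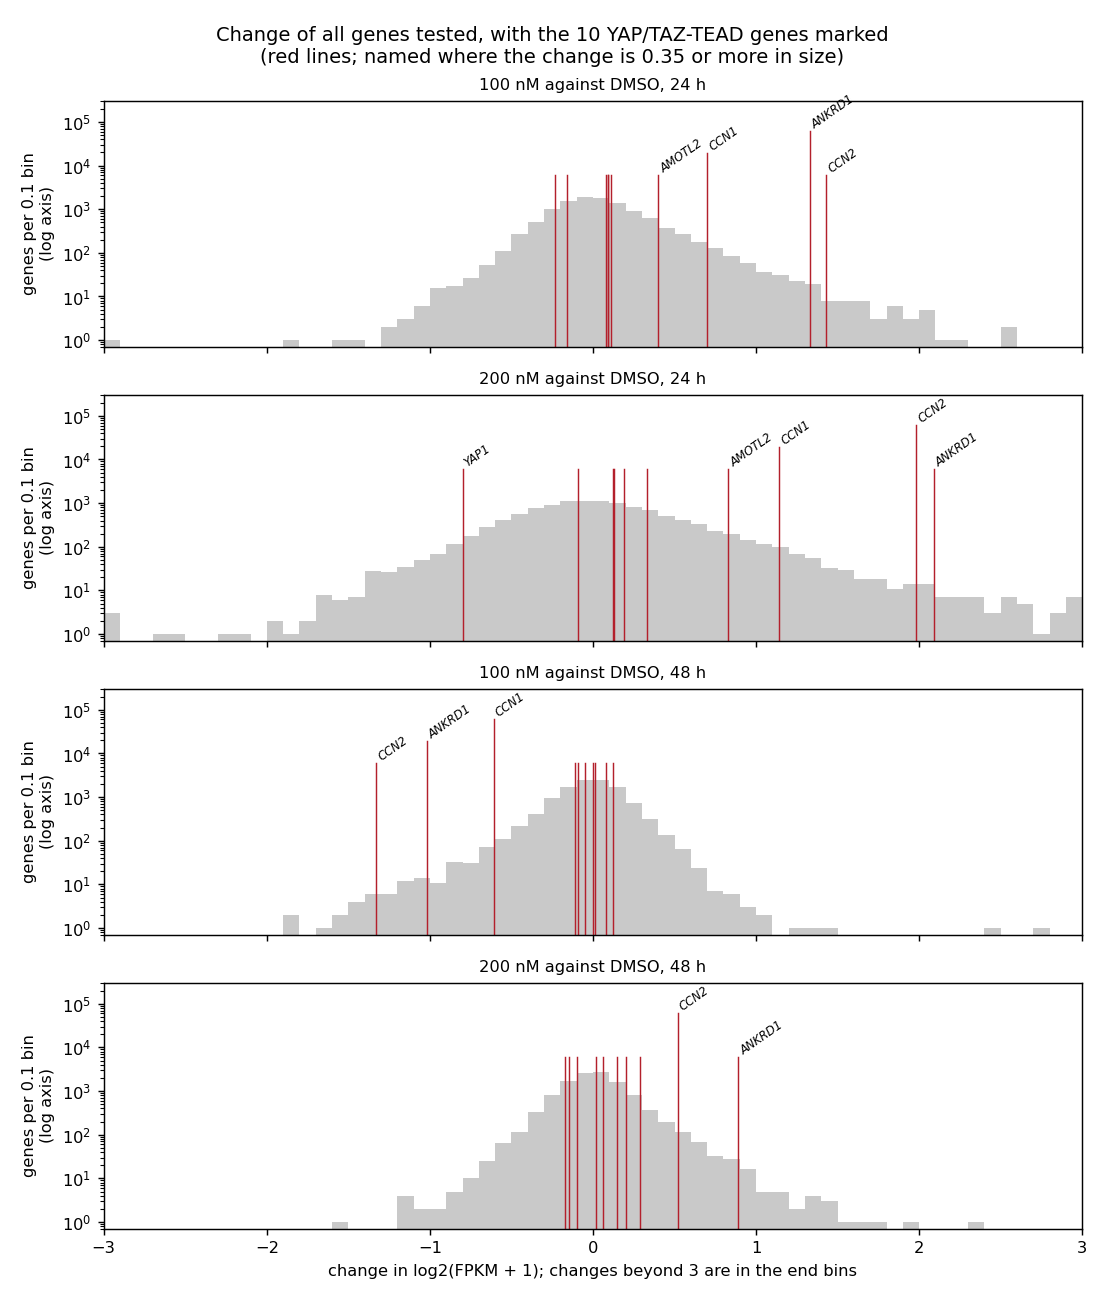
Number of genes (log axis) by change in log2(FPKM + 1) against DMSO of the same time, in bins of 0.1, with 1 panel per comparison and red lines at the 10 YAP/TAZ-TEAD genes. CCN2 and ANKRD1 lie far to the right at 24 h, at 1.98 and 2.09 for 200 nM, and far to the left for 100 nM at 48 h, at -1.33 and -1.02.

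Exchanging the DMSO references altered several of these calls. Against DMSO of 48 h, the 100 nM library of 24 h had CCN2 at 0.23, ANKRD1 at 0.76 and CCN1 at 0.26, so that 0 of the 10 genes passed 2-fold. The 200 nM library of 24 h had ANKRD1 at 1.51, AMOTL2 at 1.09, CCN2 at 0.78 and CCN1 at 0.70 against the same reference. CCN1, CCN2 and ANKRD1 were still higher at 200 nM, each by less than against DMSO of 24 h. Against DMSO of 24 h, the 100 nM library of 48 h had CCN2 at -0.13, ANKRD1 at -0.44 and CCN1 at -0.18. The 200 nM library of 48 h had CCN2 at 1.72, ANKRD1 at 1.46 and CCN1 at 0.59. The direction of CCN1, CCN2 and ANKRD1 was the same with either reference in all 4 comparisons, and the sizes and 2-fold calls depended on which DMSO library was used. Without any DMSO library, 200 nM exceeded 100 nM at 24 h by 0.55 for CCN2 and 0.76 for ANKRD1, and at 48 h by 1.85 and 1.91.

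AMOTL2 (NCBI Gene 51421) encodes an angiomotin-like scaffold that binds YAP and holds it at junctions, and it is itself a YAP target. It was at 39.92, 53.12 and 71.54 FPKM in DMSO, 100 nM and 200 nM at 24 h, and at 33.04, 30.54 and 40.69 FPKM at 48 h. The order by dose at 24 h was that of CCN1, with smaller steps, and at 48 h the DMSO and 100 nM levels lay close together. The log2 difference at 200 nM and 24 h was 0.83, with 6.96% of genes above it, and 0.40, -0.11 and 0.29 in the other comparisons (100 nM and 24 h, 100 nM and 48 h, 200 nM and 48 h).

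AJUBA (NCBI Gene 84962) encodes a LIM protein that binds LATS kinases and limits their activity. It was at 36.07, 32.21 and 33.76 FPKM at 24 h and at 22.69, 22.76 and 20.41 FPKM at 48 h. As with TEAD4, the libraries of 48 h were all below those of 24 h, and treatment made little difference within a time, from -0.16 to 0.00. With the DMSO library of the other time, the sign at 24 h turned to 0.49 at 100 nM and 0.55 at 200 nM. The 48 h values came to -0.64 at 100 nM and -0.79 at 200 nM against that reference.

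Of the 7 angiomotin, PTPN14 and Ajuba family genes, 0 passed 2-fold in any comparison, where the share of all genes was at most 4.47% higher and 1.48% lower, so that a count of 0 is near the background. At 24 h 5 of the 7 were higher and 2 lower at each dose, against 51.6% of all genes higher at 100 nM and 51.2% at 200 nM. Their median was 0.38 at 100 nM and 0.51 at 200 nM, against 0.01 over all genes. PTPN14, a phosphatase gene whose product binds YAP, was at 22.96, 31.4 and 33.04 FPKM at 24 h, and AMOTL1 at 14.79, 20.53 and 22.93. These genes were higher with dose at 24 h, as AMOTL2 was, while WTIP was at 8.63, 7.79 and 6.19 FPKM. At 48 h the median was 0.00 at 100 nM and 0.21 at 200 nM. LIMD1, an Ajuba family gene, was at 17.18, 17.46 and 20.61 FPKM in DMSO, 100 nM and 200 nM at 48 h.

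LATS2 (NCBI Gene 26524) encodes a kinase that phosphorylates YAP and TAZ, and the gene is also one of their targets. It was at 10.65, 11.38 and 12.33 FPKM at 24 h and at 10.82, 10.07 and 10.97 FPKM at 48 h. It was the lowest of the 10 genes in each of the 6 libraries, with log2 differences from -0.09 to 0.19. LATS1, the paralog, was at 6.79, 5.0 and 4.48 FPKM at 24 h, so that the ratio of LATS2 to LATS1 had values of 1.57, 2.28 and 2.75 in DMSO, 100 nM and 200 nM. The 48 h libraries had ratios of 2.15, 2.03 and 2.18, with no order by dose.

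Of the 17 genes of the Hippo kinase core and its activators, 1 rose at least 2-fold at 200 nM and 24 h, against 4.47% of all genes, and 0 fell, against 1.48%, so that the count was near the background. It was WWC1, which encodes the scaffold KIBRA, at 10.13 FPKM in DMSO and 21.62 at 200 nM, a log2 change of 1.02 that came to 0.96 with median-of-ratios scaling and to 0.51 against DMSO of 48 h. At that dose 8 of the 17 were higher and 9 lower, with a median of -0.02. The genes thus stood on both sides of DMSO: MOB1A, a LATS cofactor gene, was at 64.56 FPKM in DMSO and 36.66 at 200 nM. MAP4K4, a kinase gene, was at 41.73 and 23.73 FPKM, whereas FRMD6 was at 46.02 and 42.99 and WWC3 at 27.4 and 37.63. In the other comparisons 0 of the 17 passed 2-fold, where at most 1.35% of all genes were higher and 0.408% lower, again near the background, with medians of 0.03 at 100 nM and 24 h, -0.09 at 100 nM and 48 h, and 0.02 at 200 nM and 48 h.

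**Figure D4:**
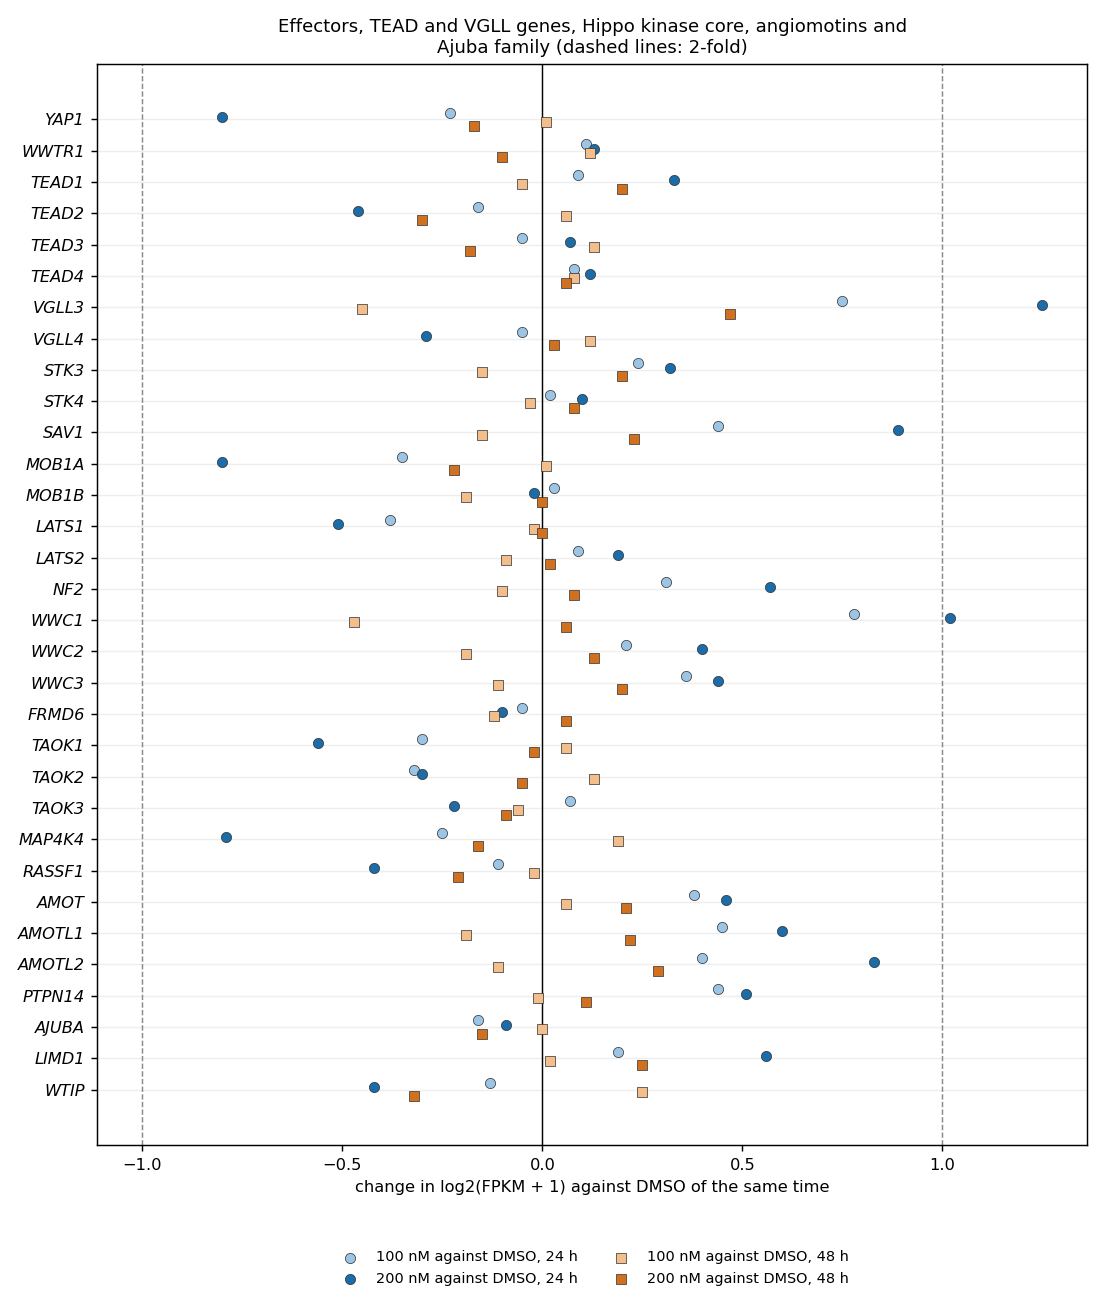
Change in log2(FPKM + 1) against DMSO of the same time for YAP1, WWTR1, TEAD and VGLL genes, the Hippo kinase core and activators, and the angiomotin, PTPN14 and Ajuba family genes (1 gene per line, 4 comparisons, dashed lines at 2-fold). VGLL3 and WWC1 pass 2-fold at 200 nM and 24 h, at 1.25 and 1.02, and the differences at 48 h are within 0.5 of DMSO.

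A list of 22 known YAP/TAZ target genes, 5 of them among the 10 genes, gave a wider view. It too was chosen with earlier results of these data known. At 100 nM and 24 h 17 of the 22 were higher and 5 lower than DMSO, with a median of 0.25 against 0.01 over all genes, of which 51.6% were higher. At least 2-fold higher were 3 of the 22 (CCN2, ANKRD1 and IGFBP3), against 1.35% of all genes. At 200 nM and 24 h 14 were higher and 8 lower, with a median of 0.45, and 51.2% of all genes were higher. The median was 0.22 with the DMSO library of the other time and also 0.22 with the mean of both. CCN1, CCN2, ANKRD1, F3 and IGFBP3 rose at least 2-fold, 5 of the 22 against 4.47% of all genes, and CCDC80 fell, 1 of the 22 against 1.48%. At 100 nM and 48 h 3 were higher and 19 lower, with a median of -0.12, and 52.4% of all genes were lower. CCN2, ANKRD1 and IGFBP3 fell, 3 of the 22 against 0.408% of all genes. At 200 nM and 48 h 14 were higher and 8 lower, with a median of 0.16, where 51.0% of all genes were higher, and 0 passed 2-fold. The other 17 genes alone had medians of 0.19, 0.04, -0.08 and 0.11. The median at 200 nM and 24 h was thus 0.45 with the 5 shared genes and 0.04 without them. At 24 h 12 of the 17 were higher and 5 lower at 100 nM, and 9 higher and 8 lower at 200 nM. At 48 h 3 were higher and 14 lower at 100 nM, and 9 higher and 8 lower at 200 nM. Of the 17, 1 rose at least 2-fold at 100 nM and 24 h, and 1 fell at 100 nM and 48 h. At 200 nM and 24 h 2 rose and 1 fell, and at 200 nM and 48 h 0 passed 2-fold.

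IGFBP3, which encodes a binding protein of insulin-like growth factors, was at 39.83, 86.26 and 130.68 FPKM in DMSO, 100 nM and 200 nM at 24 h, and at 56.13, 25.79 and 109.91 FPKM at 48 h. F3, the tissue factor gene, was at 162.36, 250.47 and 353.11 FPKM at 24 h and at 168.87, 103.76 and 255.15 FPKM at 48 h. Against DMSO of 48 h, 200 nM at 24 h stood at 1.20 for IGFBP3 and 1.06 for F3, still past 2-fold, while IGFBP3 at 100 nM stood at 0.61. Both had the same order of libraries as ANKRD1 within each time, lowest at 100 nM and highest at 200 nM at 48 h. CCDC80, a matrix protein gene, went the other way at 24 h, from 42.23 FPKM in DMSO to 15.73 at 200 nM, and fell by 1.37, or by 0.90 against DMSO of 48 h. Other abundant targets stayed nearer to DMSO: AXL, a receptor tyrosine kinase gene, was at 475.1 FPKM in DMSO and 405.04 at 200 nM at 24 h. NT5E was at 229.02 and 164.85 FPKM, MYOF at 136.03 and 105.43, and CRIM1 at 133.19 and 184.5 in the same libraries. The list thus held genes on both sides of DMSO at the higher dose.

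**Figure D5:**
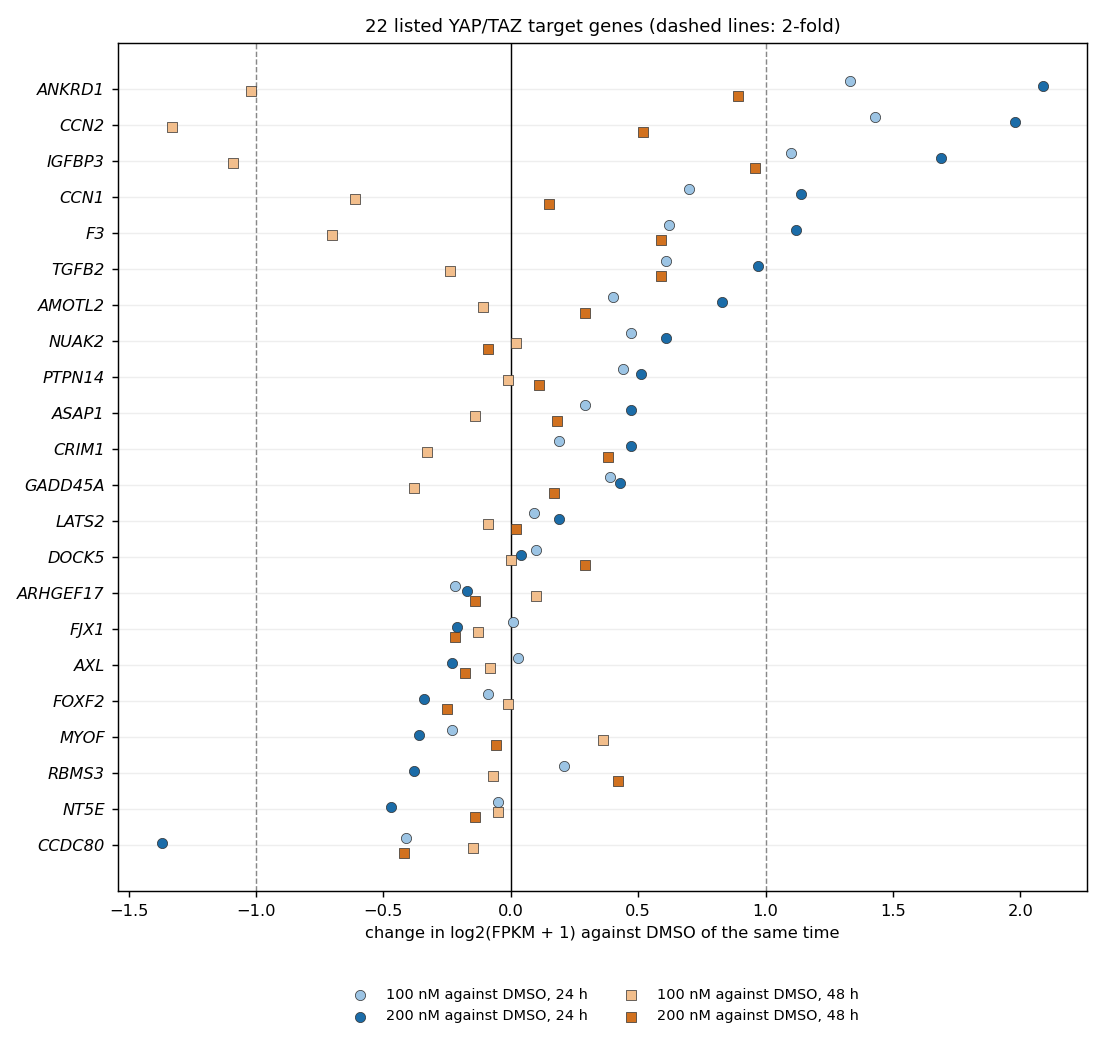
Change in log2(FPKM + 1) against DMSO of the same time for 22 YAP/TAZ target genes, ordered by their change at 200 nM and 24 h (circles 24 h, squares 48 h, dashed lines at 2-fold). ANKRD1, CCN2 and IGFBP3 lie beyond 2-fold to the right for both doses at 24 h and beyond 2-fold to the left for 100 nM at 48 h, and CCDC80 lies at -1.37 for 200 nM at 24 h.

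Among the 6 CCN family genes, 4 passed the filter of 1 FPKM at each comparison. CCN5 was low, at 0.27, 1.16 and 2.5 FPKM at 24 h and 3.59, 1.75 and 7.39 at 48 h, and its DMSO libraries differed by 1.85 in log2. It passed the filter at 24 h through the treated libraries only, and 200 nM at 24 h stood at 1.46 against DMSO of 24 h and -0.39 against DMSO of 48 h. Its 48 h levels were ordered like those of CCN2. CCN3 ranged from 6.81 to 11.03 FPKM, and CCN4 and CCN6 reached at most 0.01 and 0.13.

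The genes with patterns nearest to CCN1, CCN2 and YAP1 were sought among 10810 genes with at least 1 FPKM in all 6 libraries, by the root mean square difference of log2(FPKM + 1) after centring each gene on its mean. Nearest to CCN1 were BAMBI at 0.053, ANKRD13B at 0.086 and PLS1 at 0.091. Nearest to CCN2 were TINAGL1 at 0.169, TSPAN13 at 0.201 and EFEMP1 at 0.211. TINAGL1 was at 18.96, 49.49 and 84.63 FPKM at 24 h and at 37.51, 21.19 and 61.54 FPKM at 48 h, again lowest in DMSO at 24 h and at 100 nM at 48 h. Nearest to YAP1 were EPDR1 at 0.034, NCKAP1 at 0.039 and PLEKHA6 at 0.04. EPDR1 was at 32.92, 26.92 and 17.95 FPKM at 24 h, with the same lowest library as YAP1. The likeness rests on 6 libraries.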

How the data were processed

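RNA-seq of 6 MDA-MB-231 libraries was used as deposited: gene FPKM values with 2 decimals. The submitters' processing notes name Bowtie2, RSEM and build hg19; versions were not given in the sources used here, and the authors' FPKM were not rescaled. NCBI Gene IDs were matched to symbols in a RefSeq table of GRCh38.p14 (16585 matched, 38 did not). Differences were taken in log2(FPKM + 1), which understates changes of low genes. A gene was tested with FPKM of at least 1 in either library and called at 2-fold. With 1 library per condition there were no p-values. Fragment depth was inferred from low FPKM values of 179 to 206 genes per library, using transcripts of 600 to 1500 bases, and is approximate. Simulated data were used to check the calling step. The software was pandas 2.3.3 and numpy 2.4.6 under Python 3.11.15, with figures from matplotlib 3.10.9.

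The members and gene lists were chosen with earlier results of these data known. Named genes were the 10 members, list genes called in any of the 4 comparisons with up to 4 others of highest mean FPKM per list, cell-line markers, and the 3 genes nearest in pattern to CCN1, CCN2 and YAP1. LATS1, VGLL4, WTIP and LIMD1 were named outside that rule, after their values were seen. MOB1B was also named outside it, in the ratio with MOB1A. MMP1, MMP2 and MMP3 were added later as a further look at the labels. Alternatives were other pseudocounts, filters, scalings, thresholds and DMSO references.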

Additional observations from a re-analysis of the deposited data

Results flagged for a closer look

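At 100 nM, 8 of the 87 list genes lay on opposite sides of DMSO at 24 h and 48 h by at least 0.5 in log2 at both times, and this opposite direction is why they are given here. Of the 10 YAP/TAZ-TEAD genes, CCN1 stood at 0.70 and -0.61, CCN2 at 1.43 and -1.33, and ANKRD1 at 1.33 and -1.02. With the DMSO library of the other time these were 0.26 and -0.18, 0.23 and -0.13, and 0.76 and -0.44, so that none of the 3 genes lay 0.5 or more from DMSO at both times. Among the other target and CCN genes, IGFBP3 stood at 1.10 and -1.09, F3 at 0.62 and -0.70, and CCN5 at 0.77 and -0.74. CCN5 was at 0.27 FPKM in DMSO at 24 h and passed the filter of 1 FPKM there through its treated library only. With the other DMSO library IGFBP3 came to 0.61 and -0.61 and F3 to 0.57 and -0.64, while CCN5 turned to -1.09 and 1.11. Among cytoskeletal targets of SRF, TPM1 stood at 0.92 and -0.66, and TAGLN at -1.02 and 0.82. With the other DMSO library TPM1 came to 0.26 and 0.00 and TAGLN turned to 0.95 and -1.15, and the TAGLN levels of the DMSO libraries differed by -1.97. Each condition has 1 library, so the difference between the times was not tested. Of all genes tested at both times, 243 of 11336 (2.14%) showed such a reversal at 100 nM. At 200 nM it was 5 of 11485 (0.0435%), and 0 of the 10 genes. The 87 list genes also include genes below the filter, so the shares have unlike denominators. The values at 48 h rest on the same DMSO library, which differed from DMSO at 24 h. They also rest on the labels: the library labelled 100 nM at 48 h resembled DMSO at 24 h in genes listed at 0 (1614 and 1708) and in the ratios of CCN1 to CCN2 (3.39 and 3.49) and of MOB1A to MOB1B (7.71 and 7.84), but not in the ratio of YAP1 to WWTR1 (1.48 and 2.12) or of LATS2 to LATS1 (2.03 and 1.57). The study reports lower MMP1 and MMP3 after treatment by quantitative PCR. By the labels, MMP1 and MMP3 stood at -1.14 and -0.66 at 100 nM and 48 h, but at 0.53 and 0.62 at 100 nM and 24 h. Whether the labels of DMSO and 100 nM at 48 h were exchanged was not tested, and an exchange would turn the 48 h signs given here.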

How the results depend on the processing

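Pseudocounts of 0.1 and 0.01, no filter, a filter of 1 FPKM in both libraries, TPM and median-of-ratios scaling left all 40 differences of the 10 genes within 0.1 in log2. Median-of-ratios scaling left 1 gene called at 100 nM and 48 h, as ANKRD1 came to -0.98. TPM took 4 list genes past 2-fold: CCN5 at 100 nM and 24 h (0.77 to 1.19) and, at 200 nM and 24 h, the markers of other cell types ACTA2 (0.88 to 1.06), CD14 (0.73 to 1.14) and PECAM1 (0.71 to 1.07). TPM divided the FPKM of each library by a similar factor, from 0.419 to 0.4275, with the pseudocount kept at 1. The pseudocount thus weighed less on these low genes. Single list genes are not given here with the smaller pseudocounts. At 1.5-fold, 5 genes were called at 200 nM and 24 h and 1 at 200 nM and 48 h.

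With the mean of both DMSO libraries as reference, 32 of the 40 differences moved by more than 0.1. Of the 40, 5 changed sign by rounded values and 6 crossed 2-fold. This gave 1 call at 100 nM and 24 h, 2 instead of 3 at 200 nM and 24 h as CCN1 came to 0.92, 0 at 100 nM and 48 h and 2 at 200 nM and 48 h, and a target list median of 0.22 at 200 nM and 24 h. With the DMSO library of the other time, 36 of the 40 moved, 9 changed sign by rounded values and 9 crossed 2-fold. This gave 0 calls at 100 nM at either time, 2 at 200 nM and 24 h (ANKRD1 and AMOTL2) and 2 at 200 nM and 48 h, and at 200 nM and 24 h a target list median of 0.22 and a Hippo list median of 0.12. The cause was not tested. The same exchange of reference for list genes called, or on opposite sides of DMSO at the times, was chosen after seeing the data: TAGLN at 100 nM and 24 h turned from -1.02 to 0.95 and CCN5 at 200 nM and 24 h from 1.46 to -0.39, and the other called list genes kept their sign. No result called at 2-fold among the 10 genes changed sign. AJUBA at 100 nM and 48 h, at 0.0 after rounding, was left out of the sign changes counted above. Its FPKM was slightly above DMSO, and it came to -0.32 with the mean reference and -0.64 with the DMSO library of the other time. No analysis paired by time was run, and there was a single library for every condition. Depth was inferred and limits differences of TEAD4 and AJUBA most, with a counting error up to 0.12.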

Other observations

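SRF and its MRTF coactivators drive cytoskeletal genes, some of which YAP and TAZ also affect. Of 14 listed MRTF-SRF target genes, 13 passed the filter at 200 nM and 24 h, CNN1 only through its treated library, with 10 higher, 3 lower and a median of 0.29 against 0.01 over all genes. TPM1, a tropomyosin gene, rose there from 41.67 to 100.62 FPKM, a log2 change of 1.25 that came to 0.59 against DMSO of 48 h, and CNN1 was listed at 0 in DMSO and at 1.09 at 200 nM. TAGLN, a smooth muscle actin-binding gene, was at 13.33, 6.05 and 7.22 FPKM in DMSO, 100 nM and 200 nM at 24 h, and at 2.66, 5.47 and 2.36 FPKM at 48 h. It was highest in DMSO at 24 h, and the DMSO libraries alone differed by -1.97. The abundant FLNA, MYH9, MYL9 and CNN2 did not pass 2-fold in any comparison, and FLNA ranged from 187.08 to 216.44 FPKM. The list's median was 0.08 at 100 nM and 24 h, -0.04 at 100 nM and 48 h, and 0.02 at 200 nM and 48 h.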
